A study of Mus musculus with 6 samples.

Results

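The genes described here encode 10 nuclear receptors: the peroxisome proliferator-activated receptors Ppara, Ppard and Pparg, the retinoic acid receptors Rara and Rarg, the thyroid hormone receptor Thra, the glucocorticoid receptor Nr3c1, the oestrogen receptor Esr1, and Nr4a1 and Nr4a2 of the NR4A subfamily. They were taken by gene symbol from a count table of 54532 mouse genes, in which each symbol had 1 row. Of the 10 genes, 9 had counts in at least 1 library and 8 had enough counts to be tested. RNA was sequenced from DC2.4, an immature dendritic cell line of the mouse, labelled as derived from bone marrow. Libraries came from 3 samples labelled as overexpressing Vdbp, the vitamin D-binding protein, and from 3 samples that received the empty vector. All 6 samples carried the pTT5 vector, were passaged 48 h after transfection and then entered selective medium. Whether the samples within a group were transfected separately is not stated in the labels, so the p-values cover the spread among these 6 samples, which may be technical. In bulk RNA, fewer cells that express a gene and less of its RNA per cell cannot be told apart.

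Nuclear receptors are transcription factors that bind DNA through zinc fingers, and most of them switch between repression and activation when a small lipophilic ligand enters their ligand-binding domain. The PPAR, retinoic acid and thyroid hormone receptors act on DNA with a retinoid X receptor as partner, whereas the glucocorticoid and oestrogen receptors are steroid receptors that act mainly as homodimers. The NR4A receptors have no known classical ligand pocket and are controlled mainly by how much of them is made, as immediate early genes that cyclic AMP, calcium and inflammatory signals induce in macrophages and dendritic cells.

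Library totals lay between 15563800 and 16710975 counts. Gc, the mouse gene of the vitamin D-binding protein, had 0 counts in all 6 libraries, which allows up to 0.177 to 0.192 CPM per library (3 counts, counting error only), so the groups are named by their labels. Defining markers went partly against the dendritic cell label. Of 17 dendritic cell markers, all had counts and 8 were tested, Itgax, Cd74, Cd86 and Irf8 among them, while H2-Aa, H2-Ab1, Batf3 and Ccr7 averaged under 0.1 CPM in both groups. Of 12 macrophage markers, 11 were tested, and their summed level was 5023 to 5446 CPM in the libraries labelled Vdbp and 5284 to 5983 CPM in the empty-vector libraries. T cell, epithelial and adipocyte markers summed to at most 0.299 CPM in any library, fibroblast markers to at most 2.25 CPM, B cell markers to at most 3.19 CPM, and mast cell or neutrophil markers to at most 4.12 CPM. GC content also separated the libraries. Across genes, which are not independent replicates, the deviation of a library from the gene's mean followed GC content with a Spearman's rho of 0.73, -0.03 and -0.40 in Vdbp replicates 1, 2 and 3, and -0.07, -0.62 and 0.07 in empty-vector replicates 1, 2 and 3.

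The sequences upstream of an annotated start site of Nr4a1 and of Nr4a2 are shown first. Both hold a repeated match to the core of the cyclic AMP response element, through which CREB factors induce these genes. In all, 16 motifs were searched on both strands in the 250 bases before each annotated start site in RefSeq (build GRCm38.p6). The TGACG core and the count of 4 or more matches below were picked after the matches of all 16 had been seen. The Nr4a1 window is chr15:101266596-101266845 on the plus strand, the Nr4a2 window is chr2:57124004-57124253 on the minus strand, and neither holds an annotated exonic base in GENCODE M21. The Nr4a1 window lies inside the span of the gene in the deposited table (101254269 to 101274795). The 250 bases before that span were not searched. Capitals mark the matches, which read CGTCA where the match lies on the opposite strand.
Nr4a1: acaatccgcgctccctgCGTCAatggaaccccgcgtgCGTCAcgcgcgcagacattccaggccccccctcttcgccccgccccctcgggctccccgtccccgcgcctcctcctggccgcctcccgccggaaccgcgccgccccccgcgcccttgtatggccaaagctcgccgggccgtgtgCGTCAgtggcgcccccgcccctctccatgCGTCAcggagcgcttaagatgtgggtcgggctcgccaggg
Nr4a2: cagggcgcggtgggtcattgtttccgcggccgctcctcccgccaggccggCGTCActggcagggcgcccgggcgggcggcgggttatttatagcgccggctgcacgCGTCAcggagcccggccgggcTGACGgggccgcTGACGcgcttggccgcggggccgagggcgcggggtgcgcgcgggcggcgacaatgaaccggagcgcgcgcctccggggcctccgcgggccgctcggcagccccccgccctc
In Nr4a1 the 4 matches began 233, 213, 69 and 40 bases before the start site, all on the opposite strand. In Nr4a2 they began 200 and 144 bases before it on the opposite strand and 123 and 111 bases before it on the coding strand. Of 32851 promoter windows of the same length, 17.8% held at least 1 match and 0.137% held at least 4. The core holds a CG, and the windows of Nr4a1 and Nr4a2 had GC contents of 74.4% and 80%. The shares over all windows were not matched for GC content. RefSeq windows were matched for 8 of the 10 genes, with 15 start sites. Outside the NR4A pair, 1 match each stood before Ppara and before the most downstream start of Rara, and none before the other start sites. All 4 matches of Nr4a1 extend to TGCGTCA, and the match 144 bases before the Nr4a2 start extends to TGACGCGT, so these matches overlap those of the core. TGCGTCA occurred in 1.75% of all windows and TGACGCGT in 0.198%. The receptor core AGGTCA (14% of all windows) had 1 match before each of 2 Pparg starts and 1 Rarg start, GGGCGG (32.7%) was found before 7 of the 8 genes, and TATAAA (12.4%) before Nr4a2 and 1 Pparg start. The other motifs had no match in these windows: TGACGTCA (1.55%), TGACGCAA (0.438%), TGANTCA (6.75%), AAAGGTCA (1.34%), the serum response element core (0.0609%), the direct repeats of AGGTCA spaced by 1 (0.0335%), 4 (0.0152%) and 5 bases (0.00913%), and the glucocorticoid (0.00913%) and oestrogen response elements (0.0639%). A match is a description of these letters and not a measured binding site.

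The 10 genes spanned a wide range of RNA levels, with Ppard and Rara at the top by FPKM and Ppara without a read. Levels between genes are compared as FPKM, the deposited counts per length and depth, as means with the SD over all 6 libraries. The order depends on the deposited lengths, for example 7425 bases for Nr3c1 and 4365 for Rara. Without division by length, mean CPM was higher in Nr3c1 (40.6 in Vdbp, 43.5 in empty-vector libraries) than in Rara (30.9 and 27.2). Ppard, a broadly expressed sensor of fatty acids, had 6.98 ± 0.93 FPKM and Rara, the widely expressed retinoic acid receptor, 6.63 ± 0.80 FPKM. Their means differed by less than either SD, with Ppard above Rara in 5 of 6 libraries. Nr3c1 followed at 5.64 ± 0.87 FPKM, with Rara above it in 4 of 6 libraries and overlapping ranges. Thra had 4.68 ± 0.59 FPKM, lower than Nr3c1 in 5 of 6 libraries, again with overlapping ranges. Pparg, which drives fat cell formation and lipid handling in macrophages, had 3.55 ± 0.11 FPKM, and its highest library lay below the lowest of Thra. Nr4a1 had 2.81 ± 0.32 FPKM, below Pparg in 6 of 6 libraries, while Rarg, at 2.59 ± 0.42 FPKM, differed from Nr4a1 by less than the SD. Nr4a2 stood lower at 0.615 ± 0.23 FPKM, and Esr1 lower still at 0.0180 ± 0.016 FPKM.

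**Figure D1:**
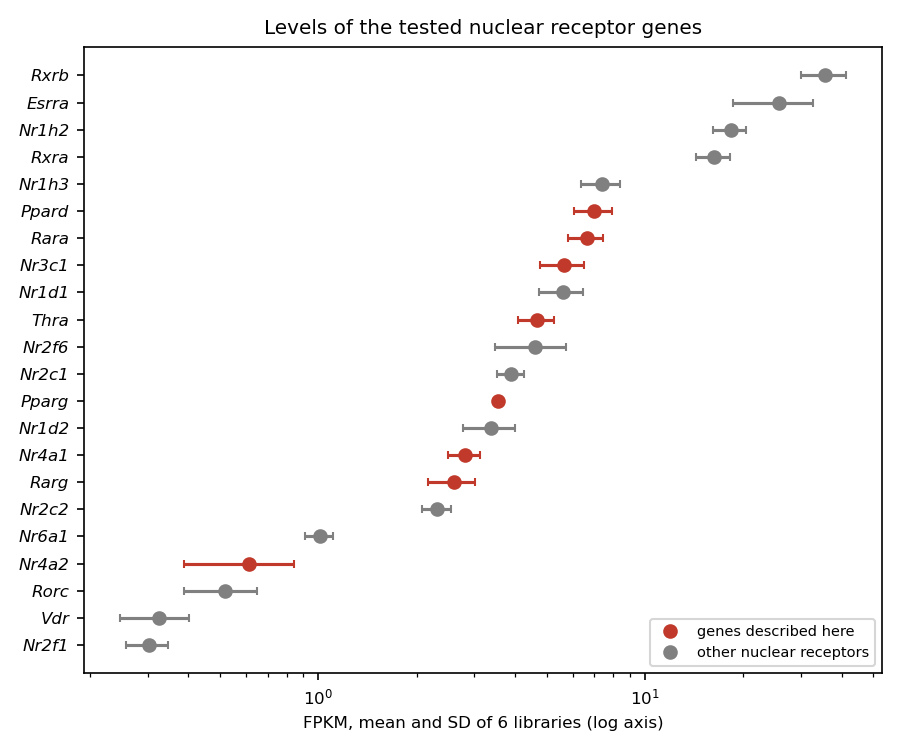
FPKM, on a log axis, of the 22 tested genes that the deposited table classes as nuclear receptors. Shown are the mean (point) and SD (bar) of 6 libraries, with the genes described here in red. Nr0b2, also tested, is not among the 22. Ppard, at 6.98 FPKM, is the highest of the 8 tested red genes, and Rxrb, Esrra, Nr1h2, Rxra and Nr1h3 lie above it.

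The deposited table's own transcription factor column lists 47 nuclear receptor genes, of which 22 were tested and 14 had 0 counts in every library. The 47 do not include Nr0b2, which was tested (1.9 ± 0.32 FPKM) and is counted among the other nuclear receptors below. By FPKM the 8 tested genes described here ranked between 6 (Ppard) and 19 (Nr4a2) of the 47, and Esr1 ranked 25. Above Ppard stood Rxrb, the RXR partner with the highest level (35.5 ± 5.62 FPKM), Esrra, Nr1h2, Rxra (16.2 ± 1.92 FPKM) and Nr1h3. Relative to the 12844 tested genes, Ppard lay above 51.8%, Rara above 50.6%, Nr3c1 above 46.5% and Nr4a2 above 10.4%. The missing relatives of the described genes were Rarb, Thrb and Esr2, each with 0 counts in all 6 libraries.

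No receptor gene passed the test between the groups. Counts were tested with edgeR's quasi-likelihood test over all 12844 tested genes with Benjamini-Hochberg adjustment, and levels within a gene are given as CPM, in which library sizes carry the TMM scaling. At an adjusted p under 0.05, 0 of the 8 tested receptor genes were called, against 0% of all tested genes. At an unadjusted p under 0.05 the count was 0 of 8, against 5.35% of all tested genes, and DESeq2 also called 0 of the 8. The Vdbp and empty-vector libraries overlapped in all 8 genes, while 10.9% of all tested genes had no overlap. The log2 fold changes lay between -0.10 and 0.18, with a median of 0.06 against -0.01 over all tested genes.

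**Figure D2:**
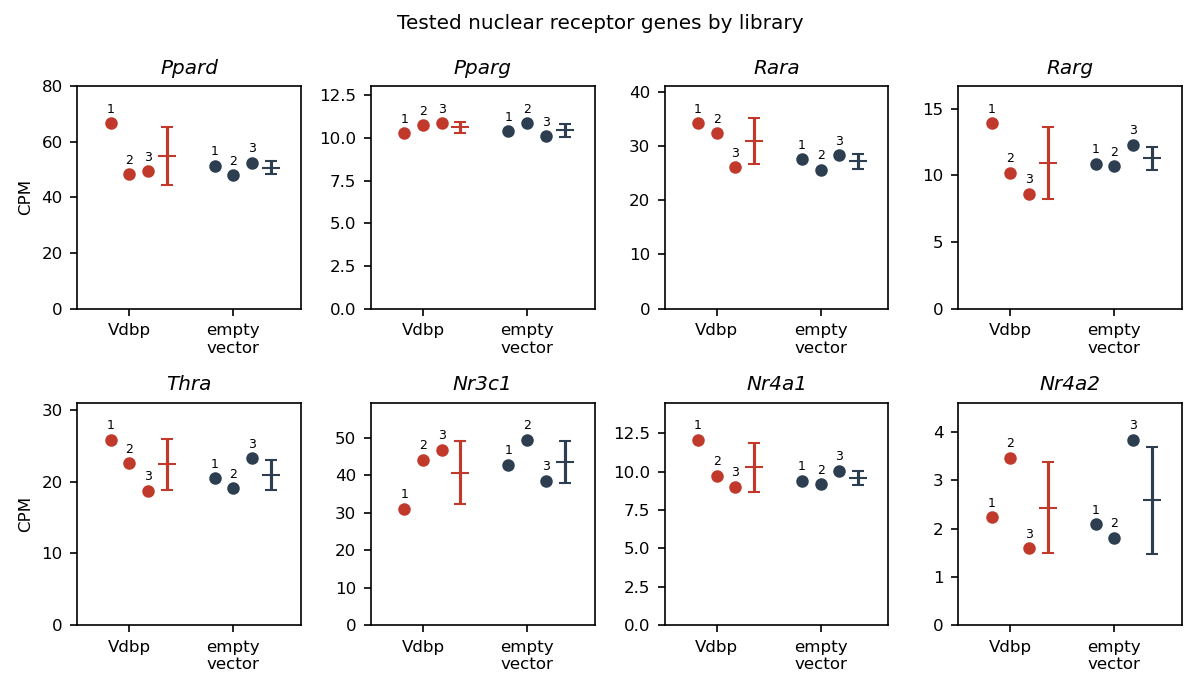
CPM of the 8 tested receptor genes in each library, with Vdbp in red on the left and empty vector in blue on the right. Points are libraries labelled by replicate number, and the bar beside them is the mean with the SD of 3 libraries. The groups overlap in every panel. Vdbp replicate 1 is the highest library in 5 of the 8 genes, against 32.8% of all tested genes.

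Among the fatty acid sensors, Ppard and Pparg were present and Ppara was not detected. Ppard (ENSMUSG00000002250, chromosome 17, 28232700 to 28301474, plus strand) had 66.8, 48.3 and 49.4 CPM in Vdbp replicates 1, 2 and 3, against 51.4, 48.1 and 52.6 CPM in empty-vector replicates 1, 2 and 3. Vdbp replicate 1 stood above the other 5 libraries, which lay close together. Ppard averaged 54.8 ± 10.4 CPM in the Vdbp libraries and 50.7 ± 2.31 CPM in the empty-vector libraries (SD, n = 3 each). The log2 fold change was 0.11 (SE 0.13, edgeR adjusted p 0.816). Without Vdbp replicate 1 the log2 fold change was -0.05, so 1 library set its direction.

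Pparg (ENSMUSG00000000440, chromosome 6, 115360951 to 115490399, plus strand) was the steadiest of the genes. It had 10.3, 10.8 and 10.9 CPM in the Vdbp libraries, against 10.4, 10.9 and 10.1 CPM in the empty-vector libraries. These 6 values had a coefficient of variation of 3.10%, below the 7.61% that counting error alone gives at its mean count. Its log2 fold change was 0.02 (SE 0.13, adjusted p 0.956), and the 95% interval ran from a fold change of 0.834 to 1.24. Ppara (ENSMUSG00000022383, chromosome 15, 85734983 to 85802819, plus strand), the receptor that drives fatty acid oxidation in liver, had 0 counts in all 3 Vdbp libraries and all 3 empty-vector libraries. At these depths that allows up to 0.0483, 0.0466 and 0.0497 FPKM in Vdbp replicates 1, 2 and 3, and up to 0.0480, 0.0466 and 0.0461 FPKM in empty-vector replicates 1, 2 and 3. The FPKM ratio of Ppard to Pparg averaged 2.04 ± 0.45 in the Vdbp libraries and 1.91 ± 0.15 in the empty-vector libraries. This ratio is 1 of 5 FPKM ratios between receptors that were chosen after the values had been seen, and none had an adjusted p under 0.80.

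Of the retinoic acid receptors, Rara (ENSMUSG00000037992, chromosome 11, 98927818 to 98974942, plus strand) had the largest difference of all 8 genes in either direction. It had 34.3, 32.4 and 26.1 CPM in Vdbp replicates 1, 2 and 3, against 27.7, 25.7 and 28.4 CPM in empty-vector replicates 1, 2 and 3. Vdbp replicates 1 and 2 lay above all empty-vector libraries, and Vdbp replicate 3 lay below empty-vector replicates 1 and 3. Its means were 30.9 ± 4.27 CPM in the Vdbp libraries and 27.2 ± 1.41 CPM in the empty-vector libraries (SD, n = 3 each), with a log2 fold change of 0.18 (SE 0.13, edgeR adjusted p 0.781). The 95% interval of the fold change ran from 0.937 to 1.38. The log2 fold change was 0.11 when Vdbp replicate 1 was left out and 0.29 when Vdbp replicate 3 was left out (unadjusted p 0.0450, edgeR adjusted p 0.424).

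Rarg (ENSMUSG00000001288, chromosome 15, 102234938 to 102257517, minus strand), a retinoic acid receptor best known from skin, had a wider spread. It had 13.9, 10.2 and 8.62 CPM in the Vdbp libraries, against 10.9, 10.7 and 12.3 CPM in the empty-vector libraries. The Vdbp libraries held both the highest and the lowest value. The log2 fold change was -0.05 (SE 0.18, adjusted p 0.942), and leaving out a library turned it to 0.10 (Vdbp replicate 3), 0.02 (empty-vector replicate 3) or 0.00 (Vdbp replicate 2). The FPKM ratio of Rara to Rarg was 2.401, 3.09 and 2.96 in Vdbp replicates 1, 2 and 3, against 2.48, 2.34 and 2.25 in empty-vector replicates 1, 2 and 3. The ratio overlapped between the groups through Vdbp replicate 1. A two-sided exact permutation test over the 3 and 3 libraries gave p = 0.20 (0.80 adjusted over 5 ratios), where 0.10 is the smallest p this design allows.

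Thra (ENSMUSG00000058756, chromosome 11, 98740638 to 98769006, plus strand), the thyroid hormone receptor, had 25.9, 22.6 and 18.8 CPM in the Vdbp libraries, against 20.5, 19.1 and 23.2 CPM in the empty-vector libraries. Both the highest and the lowest value came from Vdbp libraries. The log2 fold change was 0.10 (SE 0.14, adjusted p 0.840). It was -0.01 without Vdbp replicate 1. The end of Thra overlaps that of Nr1d1, the clock receptor REV-ERB alpha on the opposite strand, from 98767932 to 98769006, and 263 exonic bases (5.70% of those of Thra) belong to both genes. The labels do not say whether the counting used strand, so reads from these bases cannot be told apart. Nr1d1 averaged 17.1 ± 3.87 CPM in the Vdbp libraries and 17.5 ± 1.41 CPM in the empty-vector libraries. Pparg and Rara also overlap a gene each, Gm44079 with 0 counts and Gm22061 with 3 counts in all libraries, but share no exonic base with it.

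Of the steroid receptors, Nr3c1 had less RNA in Vdbp replicate 1 than in any other library. Nr3c1 (ENSMUSG00000024431, chromosome 18, 39410545 to 39491301, minus strand), which mediates the anti-inflammatory action of glucocorticoids, had 31.1, 44.1 and 46.7 CPM in Vdbp replicates 1, 2 and 3, against 42.7, 49.4 and 38.4 CPM in empty-vector replicates 1, 2 and 3. Vdbp replicates 2 and 3 lay within the range of the empty-vector libraries. The means were 40.6 ± 8.38 CPM in the Vdbp libraries and 43.5 ± 5.55 CPM in the empty-vector libraries (SD, n = 3 each), with a log2 fold change of -0.10 (SE 0.16, edgeR adjusted p 0.849). Leaving out Vdbp replicate 1 gave a log2 fold change of 0.06, and leaving out empty-vector replicate 2 gave 0.00. Esr1 (ENSMUSG00000019768, chromosome 10, 4611593 to 5005614, plus strand) had 2, 1 and 10 counts in Vdbp replicates 1, 2 and 3, against 1, 4 and 6 counts in empty-vector replicates 1, 2 and 3. With 13 counts in the Vdbp libraries and 11 in the empty-vector libraries it did not pass the filter on low counts. In the fit without that filter its log2 fold change was 0.29 (SE 0.81, edgeR adjusted p 0.930).

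The NR4A genes differed in how much they varied. Nr4a1 (ENSMUSG00000023034, chromosome 15, 101254269 to 101274795, plus strand), also called Nur77, had 12.1, 9.74 and 9.01 CPM in the Vdbp libraries, against 9.41, 9.18 and 10.1 CPM in the empty-vector libraries. Apart from Vdbp replicate 1 the values lay close together. Its log2 fold change was 0.11 (SE 0.15, adjusted p 0.840), and it was -0.02 without Vdbp replicate 1. Nr4a2 (ENSMUSG00000026826, chromosome 2, 57106830 to 57124003, minus strand), also called Nurr1, had 2.24, 3.47 and 1.60 CPM in Vdbp replicates 1, 2 and 3, against 2.09, 1.81 and 3.85 CPM in empty-vector replicates 1, 2 and 3. A high library stood in each group, Vdbp replicate 2 and empty-vector replicate 3.

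Nr4a2 had the widest spread of the 8 tested genes, with a coefficient of variation of 36.8% over the 6 libraries, against 15.6% from counting error alone at its mean count. For Nr4a1 these values were 11.4% and 7.85%. The log2 fold change of Nr4a2 was -0.08 (SE 0.35, adjusted p 0.949), and its 95% interval ran from a fold change of 0.561 to 1.59, the widest of the 8. Leaving out a library gave 0.33 (empty-vector replicate 3), 0.14 (Vdbp replicate 3) or -0.43 (Vdbp replicate 2). The FPKM ratio of Nr4a1 to Nr4a2 was 6.23, 3.25 and 6.52 in the Vdbp libraries, against 5.21, 5.86 and 3.02 in the empty-vector libraries. The third member of the subfamily, Nr4a3, had 1, 1 and 2 counts in the Vdbp libraries, against 3, 5 and 3 counts in the empty-vector libraries, too few to be tested. With at most 5 counts in a library, these values allow no statement on a difference.

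**Figure D3:**
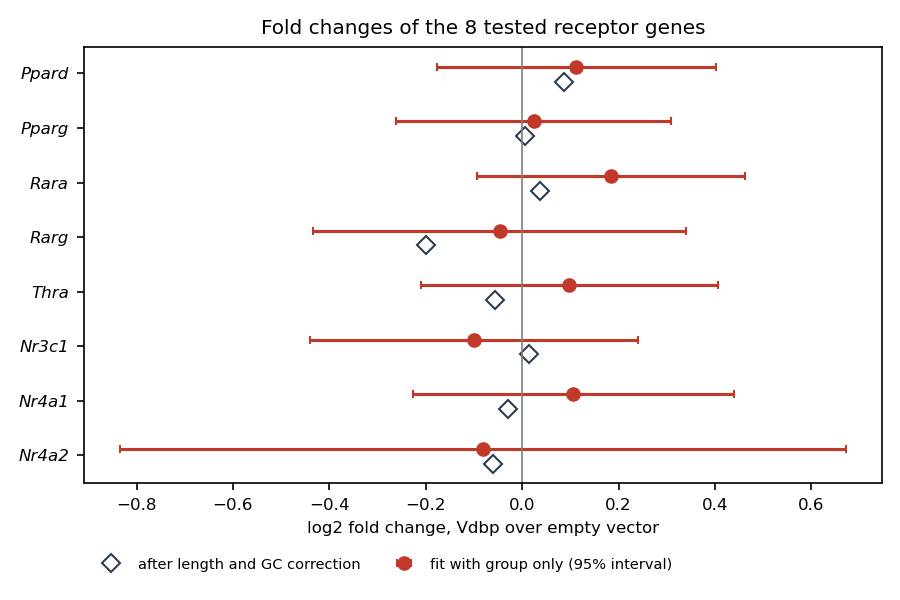
Log2 fold change of the 8 tested receptor genes, Vdbp over empty vector, with filled points and 95% intervals from the fit with group as the only term and open diamonds from the fit corrected for gene length and GC content. All 8 intervals include 0, and the interval of Nr4a2 is the widest.

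Vdbp replicate 1, the library with the strongest GC trend, was an extreme library for most of the receptor genes. It was also extreme in a large share of all tested genes, as given below. GC content was that of the longest GENCODE M21 transcript, and tested genes had a median of 49.5% with quartiles at 44.8% and 54.2%. Thra (59.8%), Rara (59.2%), Rarg (58.8%) and Nr4a1 (57.0%) lay above the upper quartile, Ppard (52.2%) above the median, and Nr3c1 (42.2%) below the lower quartile. In the first 5 of these genes Vdbp replicate 1 was the highest of the 6 libraries, which held for 32.8% of all tested genes. In Nr3c1 it was the lowest, which held for 32.3% of all tested genes. Vdbp replicate 1 deviated from the gene's mean log2 CPM by 0.35 in Ppard, 0.34 in Rarg, 0.29 in Nr4a1, 0.26 in Thra, 0.25 in Rara and -0.42 in Nr3c1.

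Each library's dependence on the length and GC content of genes was then estimated as a smooth curve and removed. After this correction Vdbp replicate 1 deviated by 0.05 in Rarg, 0.03 in Nr4a1, -0.04 in Thra, -0.05 in Rara and -0.14 in Nr3c1. In Ppard it was still 0.26. What produced the GC trend was not tested. The SD over the 6 libraries fell in 6 of the 8 genes, for example to 0.07 in Thra, against 0.18 before the correction, and in 72.9% of all tested genes. The exceptions were Pparg (0.06 after and 0.04 before) and Nr4a2 (0.49 both after and before), whose high libraries stayed Vdbp replicate 2 (0.51) and empty-vector replicate 3 (0.68).

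The correction shrank the largest fold change of the set, enlarged that of Rarg and turned the direction of several others. The log2 fold change of Rara was 0.04 after it and that of Ppard 0.09. Rarg was at -0.20 (edgeR unadjusted p 0.111, adjusted p 0.644), against -0.05 before the correction, and now had the largest difference of the 8 genes. Thra (-0.06), Nr4a1 (-0.03) and Nr3c1 (0.01) changed sign. None of the 8 genes was called after the correction, against 0.0156% of all tested genes, and 0 of the 8 had an unadjusted p under 0.05, against 8.86% of all tested genes.

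**Figure D4:**
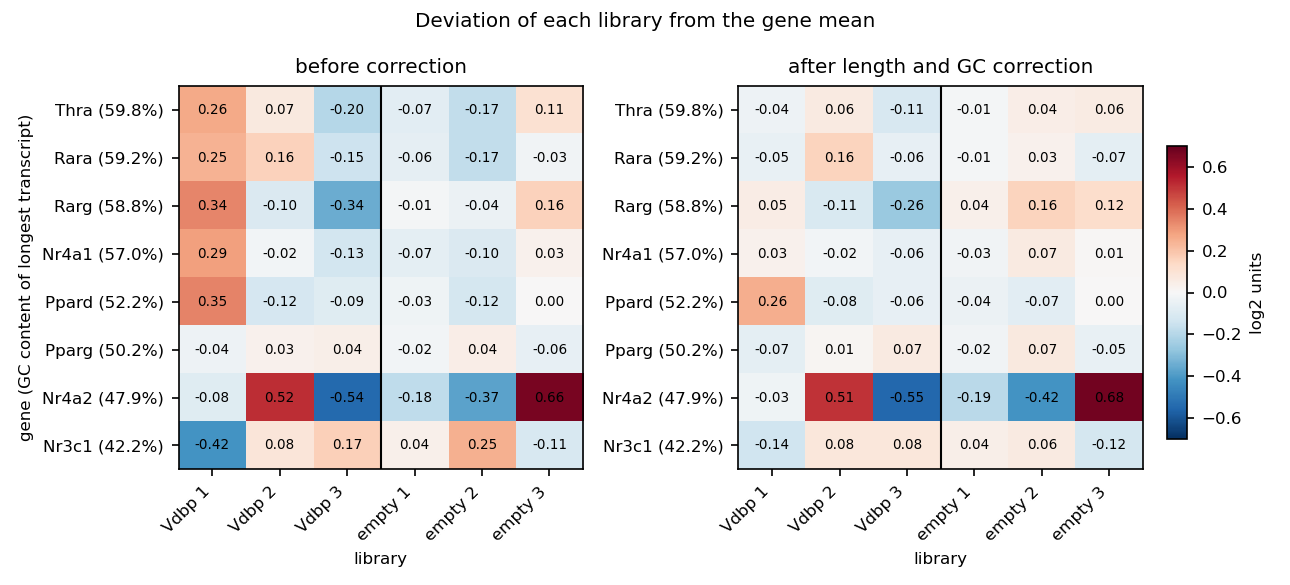
Deviation of each library from the gene's mean, in log2 units, for the 8 tested receptor genes ordered by GC content, before (left) and after (right) removal of a trend on gene length and GC content. In Vdbp replicate 1 the deviations of Thra, Rara, Rarg, Nr4a1 and Nr3c1 shrink to between -0.14 and 0.05, while 0.26 remains in Ppard and Pparg is at -0.07 after and -0.04 before the correction. Nr4a2 keeps its high values in Vdbp replicate 2 and empty-vector replicate 3.

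Genes with a pattern like that of Ppard, the member with the highest level, were searched over the 6 libraries among 11102 tested protein-coding genes. Otub1, a deubiquitinase, was closest with a Pearson correlation of log2 CPM of 0.996, followed by Nacc2 (0.994) and Prex1 (0.993), a guanine nucleotide exchange factor for Rac. Their GC contents were 56.1%, 53.9% and 57.6%. After the length and GC correction the correlation with Ppard was -0.27 for Otub1, 0.99 for Nacc2 and 0.03 for Prex1. Their log2 fold changes, Vdbp over empty vector, were 0.05, 0.08 and 0.07. Before the correction Ppard deviated from its mean by 0.35 in Vdbp replicate 1 and by -0.12 to 0.005 in the other libraries. The correlations therefore rest mainly on 1 library. As the highest values of a search through 11102 genes over 6 libraries, they are a description without a test.

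Genes that work with the receptors or are controlled by them were described from 10 lists, and none of their members passed the adjusted threshold. The partners and relatives came first. Of 38 other nuclear receptors, 15 were tested, and their log2 fold changes had a median of 0.08, or -0.01 after the length and GC correction. Rxrb had 164, 137 and 118 CPM in the Vdbp libraries, against 124, 105 and 144 CPM in the empty-vector libraries (log2 fold change 0.17, SE 0.14, edgeR adjusted p 0.784). Rxra averaged 91.6 ± 13.98 CPM in the Vdbp libraries and 86.8 ± 8.31 CPM in the empty-vector libraries (log2 fold change 0.08, SE 0.12). Like Rara, both RXR genes are GC-rich (61.4% and 57.0%), and after the length and GC correction their log2 fold changes were -0.01 and -0.05.

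Coregulators and chaperones of the receptors were nearly all present. Of 24 coregulators 23 were tested, 9 with a positive and 14 with a negative log2 fold change, and the median was -0.06. Prmt1, an arginine methyltransferase and the coregulator with the highest level, averaged 209 ± 19.97 CPM in the Vdbp libraries and 180 ± 2.49 CPM in the empty-vector libraries (edgeR unadjusted p 0.0404, adjusted p 0.781). Its groups did not overlap, which held for 10.9% of all tested genes. At an unadjusted p under 0.05 stood 3 of the 23 coregulators, 1 higher and 2 lower in the Vdbp libraries, against 5.35% of all tested genes. All 11 chaperones of steroid receptors were tested, with a median of 0.02, and Hsp90ab1, the HSP90 chaperone with the highest level, averaged 2243 ± 121 CPM in the Vdbp libraries and 2157 ± 56.7 CPM in the empty-vector libraries. Of 24 genes of ligand supply and binding, 10 were tested, with a median of -0.03. Ptgs2, the cyclooxygenase that makes prostanoids, averaged 209 ± 31.3 CPM in the Vdbp libraries and 252 ± 26.9 CPM in the empty-vector libraries (log2 fold change -0.28, adjusted p 0.781). With length and GC content corrected for, the log2 fold change was -0.15 in Ptgs2, 0.12 in Prmt1, against 0.22 before it, and 0.03 in Hsp90ab1, against 0.06 before it.

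Target genes of the ligand-activated receptors did not pass the threshold in either group's direction. Of 25 PPAR targets, 20 were tested, with a median of -0.03, and Plin2, a lipid droplet coat protein, averaged 556 ± 48.6 CPM in the Vdbp libraries and 577 ± 40.5 CPM in the empty-vector libraries. Of 12 retinoic acid receptor targets, 6 were tested, with a median of 0.01, and Tgm2, a transglutaminase, averaged 238 ± 33.4 CPM in the Vdbp libraries and 224 ± 26.5 CPM in the empty-vector libraries. Of 9 thyroid hormone receptor targets, 6 were tested, with a median of 0.06, and Me1, malic enzyme, averaged 152 ± 15.2 CPM in the Vdbp libraries and 159 ± 11.3 CPM in the empty-vector libraries. Among 20 glucocorticoid receptor targets, 19 were tested, with a median of -0.04. Mt1, a metallothionein, averaged 409 ± 76.7 CPM in the Vdbp libraries and 439 ± 76.1 CPM in the empty-vector libraries. Fkbp5, a chaperone that glucocorticoids induce, averaged 107 ± 1.06 CPM in the Vdbp libraries and 106 ± 4.17 CPM in the empty-vector libraries, and was chosen after its values were seen. It does not stand for the list. The log2 fold changes of the 19 ran from -0.29 in Rgs2 to 0.76 in Mt2, 9 positive and 10 negative. At an unadjusted p under 0.05 (edgeR) stood 2 of the 19, 1 in each direction, against 5.35% of all tested genes. Of 10 oestrogen receptor targets, 6 were tested, with a median of 0.11, and Rara, described above, is 1 of these 6. Ctsd, the protease cathepsin D, averaged 1804 ± 229 CPM in the Vdbp libraries and 1689 ± 76.2 CPM in the empty-vector libraries.

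The length and GC correction brought the medians of all 10 lists to between -0.06 and 0.02. The median was then 0.00 for the oestrogen and thyroid hormone receptor targets, 0.01 for ligand supply, -0.02 for the PPAR targets, -0.03 for the coregulators, -0.05 for the NR4A list and -0.06 for the glucocorticoid receptor targets. Among the named targets, the log2 fold change turned to -0.04 in Tgm2, against 0.09 before it, to -0.03 in Ctsd, against 0.10, and to 0.01 in Me1, against -0.07. In Mt1 it was -0.18, against -0.10, and in Plin2 -0.10, against -0.05.

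The genes that induce the NR4A receptors or respond with them held the smallest p of all lists. Of 20 such genes 17 were tested, with a median of -0.09. Junb, an AP-1 factor, averaged 218 ± 39.3 CPM in the Vdbp libraries and 188 ± 35.8 CPM in the empty-vector libraries (log2 fold change 0.21, edgeR adjusted p 0.781), and its log2 fold change was 0.02 after the length and GC correction. Fos, the immediate early factor with the smallest p and chosen after its values were seen, had 16.3, 24.3 and 22.7 CPM in Vdbp replicates 1, 2 and 3, against 36.3, 27.8 and 37.2 CPM in empty-vector replicates 1, 2 and 3. Every Vdbp library of Fos lay below every empty-vector library, while 10.9% of all tested genes had no overlap in either direction. The log2 fold change of Fos was -0.68, but its edgeR adjusted p over all tested genes was 0.781 (unadjusted p 0.00145). After the length and GC correction the log2 fold change was -0.71 (edgeR adjusted p 0.38). Nr4a1 and Nr4a2, which are induced by many of the same signals, overlapped between the groups, as given above.

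**Figure D5:**
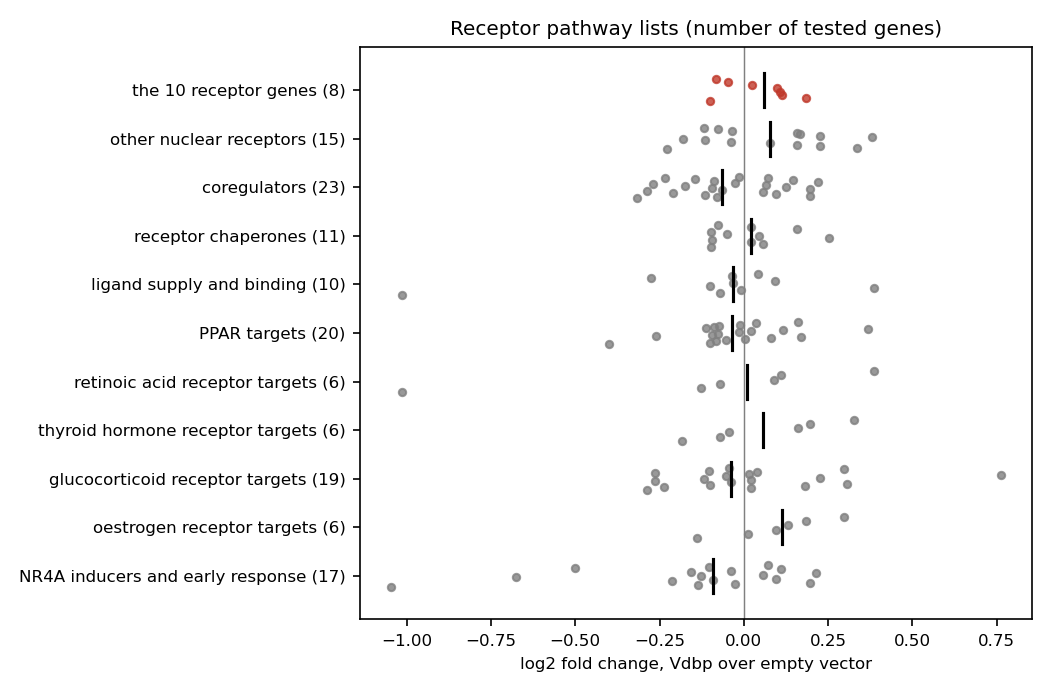
Log2 fold change, Vdbp over empty vector, of each tested gene of the receptor set (red) and of the 10 lists (grey), with the number of tested genes in parentheses and the list median as a black line. The medians lie between -0.09 and 0.11, and no point passed the adjusted threshold. Rara is drawn both in the receptor set and among the oestrogen receptor targets.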

How the data were processed

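The authors deposited raw counts by Ensembl gene and, separately, FPKM values. HISAT2 and StringTie are named without version per the submitters' processing notes, while the sources used here do not give the counting tool, build, annotation or strand setting. Each FPKM value equalled the count divided by gene length and by a constant per library (largest relative gap 5.3e-15). Of the gene IDs, 99.9% were found in GENCODE M21 (GRCm38), 98.3% of these with the same start and end. Positions are those of the deposited table, 1-based, and matched GRCm38 for all receptors except the start and end of Nr3c1.

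The count analysis ran edgeR 4.0.16 under R 4.3.3: filterByExpr (minimum count 10, total 15, proportion 0.7), TMM scaling and a two-sided quasi-likelihood test with group as the only term, adjusted by the Benjamini-Hochberg method over 12844 genes at 0.05. Levels carry the SD over libraries and fold changes the model's SE. Alternatives used RLE and upper-quartile scaling, no filter, DESeq2 1.42.0, limma 3.58.1 on log2 FPKM with pseudocounts of 1 and 0.1 (mean FPKM of at least 0.1, or no filter), the replicate number as a block, a length and GC offset fitted with mgcv 1.9.3, and leaving out libraries. The fits were tested on simulated data with the same dispersion for every gene and no length or GC trend. The simulation therefore does not show how the fits behave under the GC trend of these libraries. Named genes were all 10 receptors, Rxra, Rxrb, Nr4a3, the member of each list with the highest mean FPKM, genes overlapping a receptor, and the 3 genes most correlated with the receptor of highest level. The receptor genes, lists and tests were chosen with earlier results of these data known, the length and GC offset included. The motif core, the FPKM ratios, Fos and Fkbp5 were picked after their values had been seen here.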

Additional observations from a re-analysis of the deposited data

How the results depend on the processing

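In the group-only fit edgeR called 0 genes of all those tested (687 at an unadjusted p under 0.05), and the count moved to 89 without a filter on low counts, 4 in DESeq2, 4 in limma on unfiltered log2(FPKM + 1), and 2 with the length and GC offset. It ranged from 0 to 22 when single libraries were left out, with 22 without empty-vector replicate 3 and 1 without empty-vector replicate 2, and was 2 without empty-vector replicate 2 and Vdbp replicate 1 together, a choice made after seeing the data. No receptor gene was called in any of the 17 alternatives, where their lowest adjusted p was 0.424 (Rara). Rara and Pparg kept their direction in all 17, with 0.11 to 0.29 in Rara and 0.00 to 0.0525 in Pparg when single libraries were left out and 0.037 in Rara with the length and GC offset. Directions turned as follows. With the length and GC offset the log2 fold change was -0.0559 in Thra, -0.0285 in Nr4a1 and 0.0141 in Nr3c1. With that offset and the replicate block it was -0.0577 in Thra, -0.0295 in Nr4a1 and 0.0126 in Nr3c1. When single libraries were left out, the log2 fold change ranged from -0.0513 to 0.20 in Ppard, -0.26 to 0.10 in Rarg, -0.0147 to 0.21 in Thra, -0.21 to 0.0642 in Nr3c1, -0.0227 to 0.19 in Nr4a1 and -0.43 to 0.33 in Nr4a2. Without the pair of libraries named above it was -0.0935 in Ppard, -0.0816 in Thra, 0.16 in Nr3c1 and -0.0563 in Nr4a1. The cause of these turns was not tested. The labels do not say that replicate numbers pair the samples, and the deviations of same-numbered libraries correlated at 0.14, 0.03 and -0.27; the replicate block left 0 genes called, with 695 at an unadjusted p under 0.05. Counts were few in Esr1, Nr4a2 and Nr4a3. In Nr4a2 the coefficient of variation (36.8%) still exceeded that from counting error alone (15.6%).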
